A study of Mus musculus with 68 samples.

Results

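The BCL2 family of apoptosis genes was followed from the donor cumulus cell (CC) through mouse somatic cell nuclear transfer (SCNT) development, and in morpholino-injected fertilized blastocysts, in their inner cell mass (ICM) and in their outer layer, the trophectoderm (TE). Its 10 members, Bcl2, Bcl2l1, Bcl2l10, Bcl2l11, Mcl1, Bax, Bak1, Bok, Bbc3 and Pmaip1, were taken by gene symbol from the deposited gene tables, which list 24421 symbols, and all 10 were found in each library. Rows that share a symbol were summed. In SCNT the nucleus of a somatic cell, here a CC of BDF1 (B6D2F1) mice, is injected into an enucleated oocyte, and the reconstructed egg is activated with strontium. Poly(A) RNA of about 10 blastomeres per library was amplified and sequenced by the Smart-seq2 protocol. The groups were 3 CC libraries, 6 SCNT libraries at each of 6 hours post activation (hpa), 14 hpa, early 2-cell (E2C), late 2-cell (L2C), 8-cell (8C), morula, ICM and TE, and 5 SCNT libraries at 4-cell (4C). A further 12 libraries came from fertilized blastocysts, with 2 ICM and 2 TE libraries for each of the controls, a morpholino against Max (Max MO) and a morpholino against Mcrs1 (Mcrs1 MO). The control libraries carry the labels control and untreated, and in the study they were injected with a random control morpholino, at a higher concentration than either targeting morpholino. All SCNT groups and the CC were labelled untreated, and the ICM and TE were pulled apart by hand from position and cell shape. The study describes the SCNT libraries as biologically independent and the morpholino libraries as biological replicates, while the labels do not say whether replicates, CC included, came from separate animals or cultures, so p-values measure the spread between these libraries.

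Proteins of this family decide whether the outer mitochondrial membrane stays closed or is permeabilized, the step that commits a cell to intrinsic apoptosis. The pro-survival members, as grouped here, are Bcl2, Bcl2l1, which encodes BCL-XL, Bcl2l10 and Mcl1. Pro-survival proteins hold the pore-forming effectors BAX and BAK1 in check. The BH3-only members are Bcl2l11, which encodes BIM, Bbc3, which encodes PUMA, and Pmaip1, which encodes NOXA. Their products bind pro-survival proteins and release these effectors. Bok, a BAX-like gene, was counted with Bax and Bak1 as an effector. Bcl2l10 is known to be expressed in the oocyte, and Mcl1 is known to be needed by the preimplantation embryo.

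Levels are in TPM, a transcript level scaled for gene length and for the library total, and folds are differences of mean log2(TPM + 1), which understate changes at low levels. A gene was called changed when limma with Benjamini-Hochberg adjustment over all genes tested gave an adjusted p under 0.05 and the change was at least 2-fold. Because the libraries are bulk pools of cells, fewer cells of a type and less RNA per cell cannot be told apart, and TPM carries no absolute amount. Of the 10 members, 7 reached the minimum mean of 1 TPM in the SCNT libraries and 8, with Bbc3 added, in the morpholino libraries. Bcl2, Bak1 and Bbc3 fell below it in the SCNT libraries, with means of 0.166, 0.0975 and 0.622 TPM. A count over the tested members is therefore never a count over the family.

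The libraries held 1.00 to 5.17 aligned gigabases, and annotated genes summed to 30.4% to 94.4% of the TPM of the assembled loci, which the authors' tables list beside them without gene names. A listed 0 may be a missed estimate in these tables. Of the widely expressed genes checked, Ldha, a glycolysis gene, was under 1 TPM in 13 of 68 libraries. Tuba1b was under it in 2, and Rpl3, Tbp and Pgk1 in 1 each. Whether the low Ldha values were missed estimates or low levels was not tested. Summed cumulus markers lay between 1675 and 2419 TPM in CC and between 7.83 and 16.1 TPM at 6 hpa, and oocyte markers reached at most 2.32 TPM in CC against 6597 to 15988 TPM at 6 hpa, as the labels have it. The ICM marker sum was 344 to 899 TPM in SCNT ICM and 67.3 to 379 TPM in SCNT TE, and the TE marker sum was 2034 to 8514 TPM in SCNT ICM and 5143 to 16239 TPM in SCNT TE, so the separated lineages overlapped on their own markers. Within most SCNT stages, replicates 1 to 3 stood apart from replicates 4 to 6 over many genes. At ICM, for example, 6177 to 6771 genes reached 1 TPM in replicates 1 to 3 and 9011 to 10032 in replicates 4 to 6. The labels name no batch, and folds from each set of replicates are given beside the results they touch.

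Because Bax, Bok and Mcl1 were each called higher from L2C to 4C and from 6 hpa to morula, and because Max, the partner of MYC proteins, is known to bind the E-box CACGTG, the 250 bases before the RefSeq start of each are shown here (GRCm38.p6, 5′ to 3′ on the gene's strand). Capitals mark CACGTG and the GC box GGGCGG or its reverse complement CCGCCC. The stretches are chr7:45466899-45467148 on the minus strand for Bax, chr3:95658471-95658720 on the plus strand for Mcl1 and chr1:93685325-93685574 on the plus strand for Bok, whose RefSeq start lies before the start of its row in the tables (93685694).
Bax: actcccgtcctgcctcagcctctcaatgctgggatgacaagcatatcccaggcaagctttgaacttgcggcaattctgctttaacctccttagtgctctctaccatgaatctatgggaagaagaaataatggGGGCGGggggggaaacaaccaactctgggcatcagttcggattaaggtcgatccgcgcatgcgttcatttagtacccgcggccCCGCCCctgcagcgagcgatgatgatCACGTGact
Mcl1: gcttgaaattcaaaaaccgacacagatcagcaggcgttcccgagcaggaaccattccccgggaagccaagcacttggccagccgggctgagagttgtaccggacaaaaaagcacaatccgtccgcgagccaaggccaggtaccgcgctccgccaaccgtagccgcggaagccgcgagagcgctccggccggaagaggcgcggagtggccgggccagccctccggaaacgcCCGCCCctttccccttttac
Bok: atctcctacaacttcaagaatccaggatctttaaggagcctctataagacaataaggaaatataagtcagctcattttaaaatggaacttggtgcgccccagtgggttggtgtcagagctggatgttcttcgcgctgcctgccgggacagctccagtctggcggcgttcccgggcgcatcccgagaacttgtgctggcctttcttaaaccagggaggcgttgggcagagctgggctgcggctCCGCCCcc

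Both strands of each window, 250 bases before to 50 bases after the start, were searched for both motifs. Promoter windows in RefSeq were matched for 8 of the 10 members, 13 windows in all. Bax had CACGTG at position -9, counted from the start, and again at 36, after the printed stretch. Mcl1 and Bok had a GC box and no CACGTG. In the other matched windows CACGTG was found in 1 of the 3 Bbc3 windows, at position -64. For comparison, 7.15% of all 32851 promoter windows held CACGTG and 35.7% held the GC box. A match of letters is a description of the window and not a binding site.

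The pro-survival arm changed hands between E2C and 8C: Bcl2l10 transcripts fell from the top ranks of the transcriptome to near 0, and Mcl1 transcripts rose. Bcl2l10 (chr9:75347758-75351640, mm10) lay between 4188 and 6245 TPM at 6 hpa with a median of 5567 TPM, between 1584 and 3999 TPM at 14 hpa with a median of 3493 TPM, and between 2837 and 5492 TPM at E2C with a median of 4419 TPM. By its mean it ranked 16 of 24421 listed genes at 6 hpa, 21 at 14 hpa and 16 at E2C. The 3 stages overlapped, and neither step between them was called. At L2C the replicates read 83.1, 47.3, 125, 1032, 843 and 652 TPM, and at 4C they read 58.6, 37.4, 6.52, 60.7 and 49.6 TPM. Every L2C library was below every E2C library, while L2C and 4C overlapped because L2C replicates 1 to 3 were already low. At 8C the range was 0 to 7.22 TPM and at morula 0.0918 to 2.18 TPM, and the median stayed under 2 TPM in SCNT ICM and TE.

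In limma, Bcl2l10 fell by 4.00 on the log2 scale from E2C to L2C (SE 0.54, adjusted p = 3.5e-08), by 2.87 from L2C to 4C (SE 0.56, adjusted p = 3.6e-05) and by 3.99 from 4C to 8C (SE 0.56, adjusted p = 5.6e-07). The timing differed between the replicate sets: the E2C to L2C fold was -5.35 in replicates 1 to 3 and -2.64 in replicates 4 to 6, and the L2C to 4C fold was -1.63 and -3.89. Both sets passed at each of these steps. From 6 hpa to morula the fold was -11.54 (SE 0.54, limma adjusted p = 1.9e-25).

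Mcl1 (chr3:95658721-95663178), which encodes a short-lived pro-survival protein, was low in the 1-cell embryo, with a lowest, median and highest level of 0.380, 1.31 and 1.51 TPM at 6 hpa and of 1.17, 2.16 and 4.66 TPM at 14 hpa. At E2C the replicates read 23.8, 19.4, 20.4, 2.01, 1.74 and 0.947 TPM. Replicates 1 to 3 of E2C were thus already at the level of L2C, where the range was 12.3 to 33.1 TPM with a median of 22.6 TPM, and replicates 4 to 6 were at the 1-cell level. At 4C the replicates read 81.0, 80.6, 101, 82.1 and 66.2 TPM, all above L2C, and 8C overlapped 4C at 69.5 to 124 TPM with a median of 95.7 TPM.

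The step from L2C to 4C was called for Mcl1, at 1.83 (SE 0.56, limma adjusted p = 0.007), with 2.08 in replicates 1 to 3 and 1.54 in replicates 4 to 6. The step from E2C to L2C was called at 1.63 (SE 0.54, limma adjusted p = 0.013), but it was -0.08 in replicates 1 to 3 and 3.35 in replicates 4 to 6, and the call was lost without E2C replicate 5 (1.34, adjusted p = 0.053) or E2C replicate 6 (1.25, adjusted p = 0.067). Its counterpart, 14 hpa to E2C, was 1.17 (SE 0.54, limma adjusted p = 0.22) over all libraries, 2.54 in replicates 1 to 3 and -0.20 in replicates 4 to 6. So the first rise of Mcl1 was placed before E2C by replicates 1 to 3 and after it by replicates 4 to 6. From 6 hpa to morula the fold was 4.33 (SE 0.54, adjusted p = 4.7e-10).

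After 8C the level of Mcl1 was set apart by replicate set. Morula replicates read 54.4, 49.8, 74.7, 25.2, 22.7 and 37.3 TPM, ICM replicates 63.9, 106, 171, 18.8, 12.6 and 17.1 TPM, and TE replicates 76.1, 149, 118, 21.3, 27.4 and 19.4 TPM. In each of the 3 groups the lowest of replicates 1 to 3 was above the highest of replicates 4 to 6. The difference of morula from 8C, -1.19 (SE 0.54, limma adjusted p = 0.14), did not pass, with -0.87 in replicates 1 to 3 and -1.51 (adjusted p = 0.00073) in replicates 4 to 6, and neither did those of ICM and TE from morula.

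Expressed as a share of the summed TPM of the 4 pro-survival members, the median of Bcl2l10 was 99.9% at 6 hpa, 99.6% at 14 hpa, 99.3% at E2C, 89.9% at L2C, 41.9% at 4C and 1.2% at 8C. The median share of Mcl1 was 7.85% at L2C, 57.9% at 4C and 96.3% at 8C. At 4C the share of Bcl2l10 ran from 5.99% to 42.8%, and the lowest value belonged to replicate 3. The summed level fell over the same interval, from a median of 5576 TPM at 6 hpa to 421 TPM at L2C, 119 TPM at 4C and 54.5 TPM at morula, so Mcl1 took over a pool that was smaller in TPM.

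**Figure D1:**
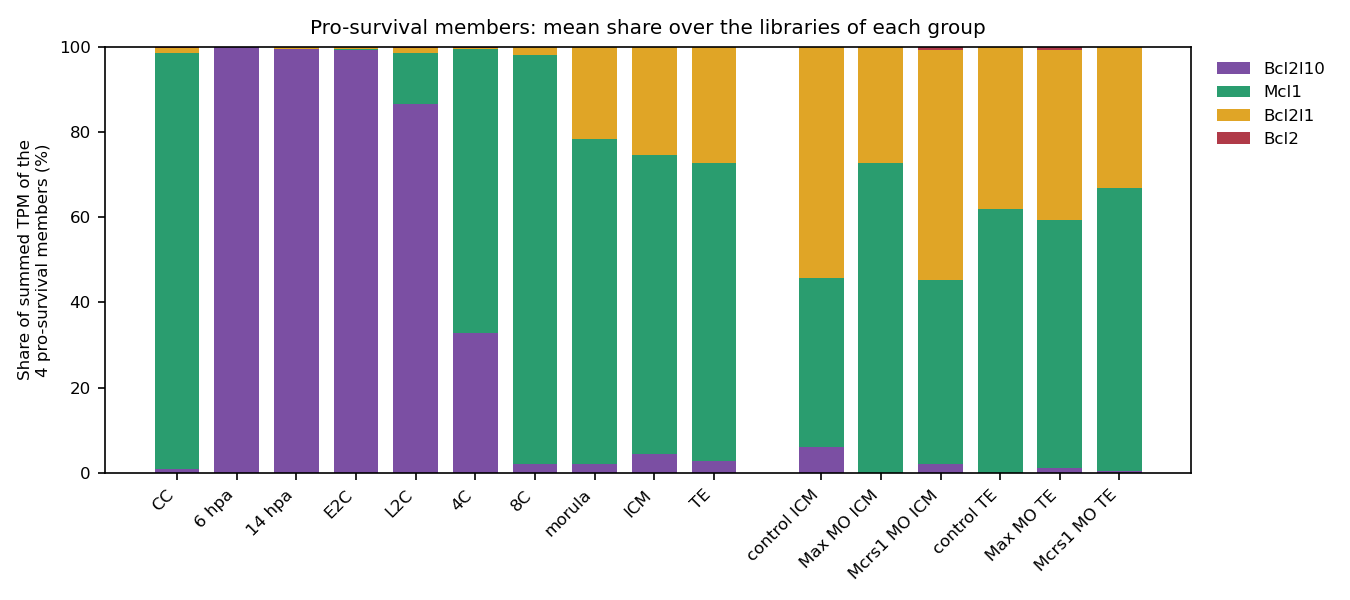
Mean share, in percent, of each of the 4 pro-survival members in their summed TPM, as stacked bars for the 16 groups. Bcl2l10 fills the bars from 6 hpa to E2C, Mcl1 fills those of CC and 8C, and Bcl2l1, by its annotated row, takes a mean of 21.4% at morula and 54.1% in control ICM.

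Bcl2l1 (chr2:152758732-152831728), the BCL-XL gene, had its highest SCNT median by the annotated row at E2C, 21.1 TPM, with a range of 5.12 to 29.1 TPM. At L2C its replicates read 0.255, 0.227, 0.257, 33.2, 2.98 and 14.7 TPM, and at 4C they read 0.269, 0.569, 0.0563, 0.346 and 0.140 TPM, the lowest median of any stage. It was present again at morula, where the range was 0.515 to 30.4 TPM with a median of 10.8 TPM, and its median share of the pro-survival sum was 28.3% there, 24.4% in ICM and 26.8% in TE. The blastocyst medians stand for no library: by the annotated row, the share was 0.297% to 0.782% in ICM replicates 1 to 3 against 48.1% to 51.2% in replicates 4 to 6, and 0.444% to 4.50% against 49.0% to 56.4% in TE. No step was called. The difference of L2C from E2C was -1.99 (SE 0.86, limma adjusted p = 0.061), and it was called without E2C replicate 1 (-2.26, adjusted p = 0.042), E2C replicate 3 (-2.22, adjusted p = 0.047), L2C replicate 4 (-2.60, adjusted p = 0.014) or L2C replicate 6 (-2.38, adjusted p = 0.030). It was -2.93 (adjusted p = 0.013) in replicates 1 to 3 and -1.04 (adjusted p = 0.10) in replicates 4 to 6. In addition, the difference of morula from 8C was 1.74 (SE 0.86, limma adjusted p = 0.18), with 1.53 in replicates 1 to 3 and 1.95 (adjusted p = 0.0077) in replicates 4 to 6.

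The level of Bcl2l1 depended on which row was read. The tables also list loci assembled without a gene name, and the largest such locus inside the Bcl2l1 span was above the annotated row in many libraries: of 50 libraries where it reached 5 TPM, 16 had an annotated row below 50% of it. Among the members with 20 or more such libraries, Bcl2l11 had 6 of 23 below that level, Pmaip1 1 of 20, Bax 1 of 64 and Bcl2l10, Mcl1 and Bok none. By the assembled locus, Bcl2l1 at 4C ranged from 0 to 10.2 TPM with a median of 3.51 TPM, the highest SCNT median was in TE (27.9 TPM, with 26.7 TPM at E2C), and the difference of L2C from E2C was -1.26 (limma adjusted p = 0.18). In ICM replicate 3 the locus read 19.0 TPM and the row 1.37 TPM. That locus level lay within the 14.1 to 21.6 TPM of ICM replicates 4 to 6, while ICM replicates 1 and 2 read 0 and 0.887 TPM. In TE replicate 1 the locus read 26.0 TPM and the row 3.59 TPM.

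**Figure D2:**
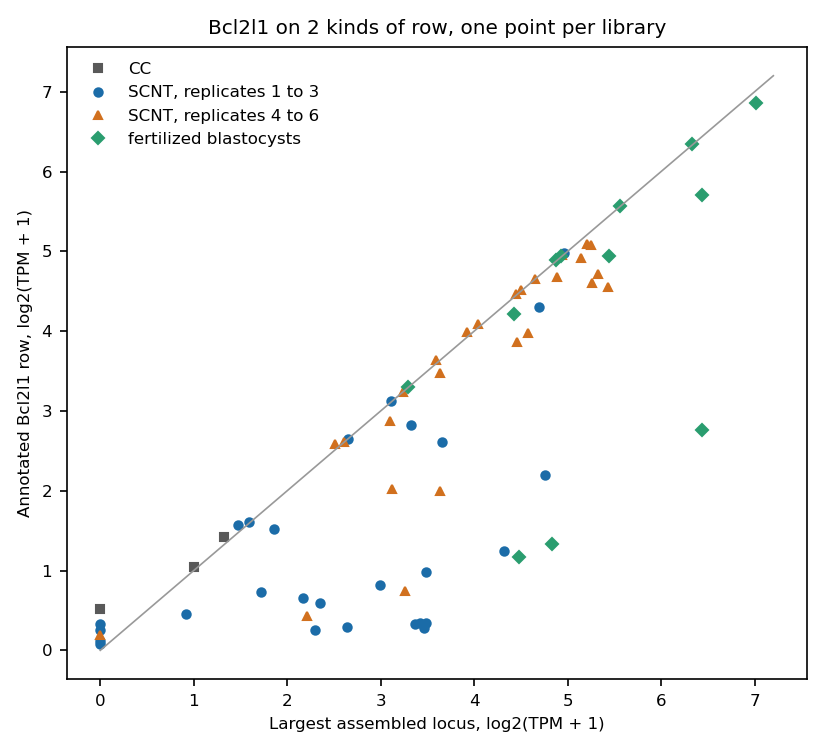
Annotated Bcl2l1 row (vertical axis) against the largest assembled locus inside the gene (horizontal axis), both as log2(TPM + 1), with a point per library and a line of equality. Points below the line are libraries whose annotated row is lower than the assembled locus, and 16 of the 50 libraries with at least 5 TPM at the locus had a row below 50% of it.

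Bcl2, the founding member, was at or under 1.75 TPM in every CC and SCNT library and listed at 0 in 25 of 53 SCNT libraries. It did not enter the tests.

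The effectors Bax and Bok rose from L2C to 4C, and Bak1 stayed near 0 throughout. Bax (chr7:45461695-45466898), whose product forms the mitochondrial pore, lay between 3.65 and 18.0 TPM at 6 hpa with a median of 9.24 TPM, and its median was 18.3 TPM at 14 hpa, 22.4 TPM at E2C and 13.7 TPM at L2C, where the range was 3.55 to 23.6 TPM. At 4C its replicates read 68.2, 106, 54.7, 200 and 183 TPM, each above every L2C library. The range was 175 to 317 TPM at 8C with a median of 210 TPM, 283 to 566 TPM at morula with a median of 422 TPM, 128 to 448 TPM in ICM and 151 to 350 TPM in TE.

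Bax rose by 3.06 on the log2 scale from L2C to 4C (SE 0.59, limma adjusted p = 2.8e-05), with 3.02 in replicates 1 to 3 and 3.37 in replicates 4 to 6. From 6 hpa to morula it rose by 5.42 (SE 0.56, adjusted p = 2.5e-12). The later steps were not called: 4C to 8C was 1.03 (SE 0.59, adjusted p = 0.22) and 8C to morula was 0.91 (SE 0.56, adjusted p = 0.31).

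Bok (chr1:93685694-93695762), a BAX-like effector, was listed at 0 in 4 of 6 libraries at 6 hpa and reached 0.936 TPM in the highest. It stayed at or under 3.56 TPM through E2C and ranged from 0 to 6.72 TPM at L2C with a median of 3.51 TPM. At 4C the replicates read 8.33, 9.52, 15.9, 30.1 and 57.2 TPM, all above L2C. The range was 33.7 to 79.6 TPM at 8C with a median of 45.9 TPM and 51.2 to 224 TPM at morula with a median of 129 TPM.

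In limma, Bok rose by 2.52 from L2C to 4C (SE 0.59, adjusted p = 0.00044) and by 6.77 from 6 hpa to morula (SE 0.56, adjusted p = 1.3e-15). The first of these was 2.12 (adjusted p = 0.051) in replicates 1 to 3 and 3.29 in replicates 4 to 6. Steps of 1.29 (SE 0.59, adjusted p = 0.11) from 4C to 8C and 1.38 (SE 0.56, adjusted p = 0.095) from 8C to morula did not pass. The former passed without 4C replicate 5 (1.68, adjusted p = 0.040), and both passed without ICM replicate 2 (adjusted p = 0.041 and 0.030), which has no part in either mean. SCNT ICM replicates read 48.6, 1.96, 38.4, 164, 77.2 and 77.7 TPM, and TE ranged from 35.5 to 184 TPM with a median of 95.8 TPM. From morula to ICM the fold was -1.57 (SE 0.56, limma adjusted p = 0.032), with -2.63 in replicates 1 to 3 and -0.50 (adjusted p = 0.40) in replicates 4 to 6. The call was lost without ICM replicate 2 (-0.80, adjusted p = 0.23), morula replicate 2 (-1.40, adjusted p = 0.080), morula replicate 5 (-1.54, adjusted p = 0.053) or morula replicate 6 (-1.46, adjusted p = 0.065), and also with a pseudocount of 0.1, with no filter, with TPM rescaled over annotated genes and in a fit of the compared groups alone (adjusted p from 0.051 to 0.15).

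Bak1, the other classical pore former, was listed at 0 in every library at 6 hpa, 14 hpa and E2C and reached at most 0.960 TPM in any SCNT library, in TE. Bax was a median of 100% of the summed effector TPM at 6 hpa, 80.6% at L2C and 76.9% at morula, and Bok was 17.9% at L2C and 23.0% at morula. The summed effector level had a median of 9.35 TPM at 6 hpa, 16.2 TPM at L2C, 115 TPM at 4C, 274 TPM at 8C and 572 TPM at morula, while the median of the summed pro-survival level was 103 TPM at 8C and 54.5 TPM at morula.

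**Figure D3:**
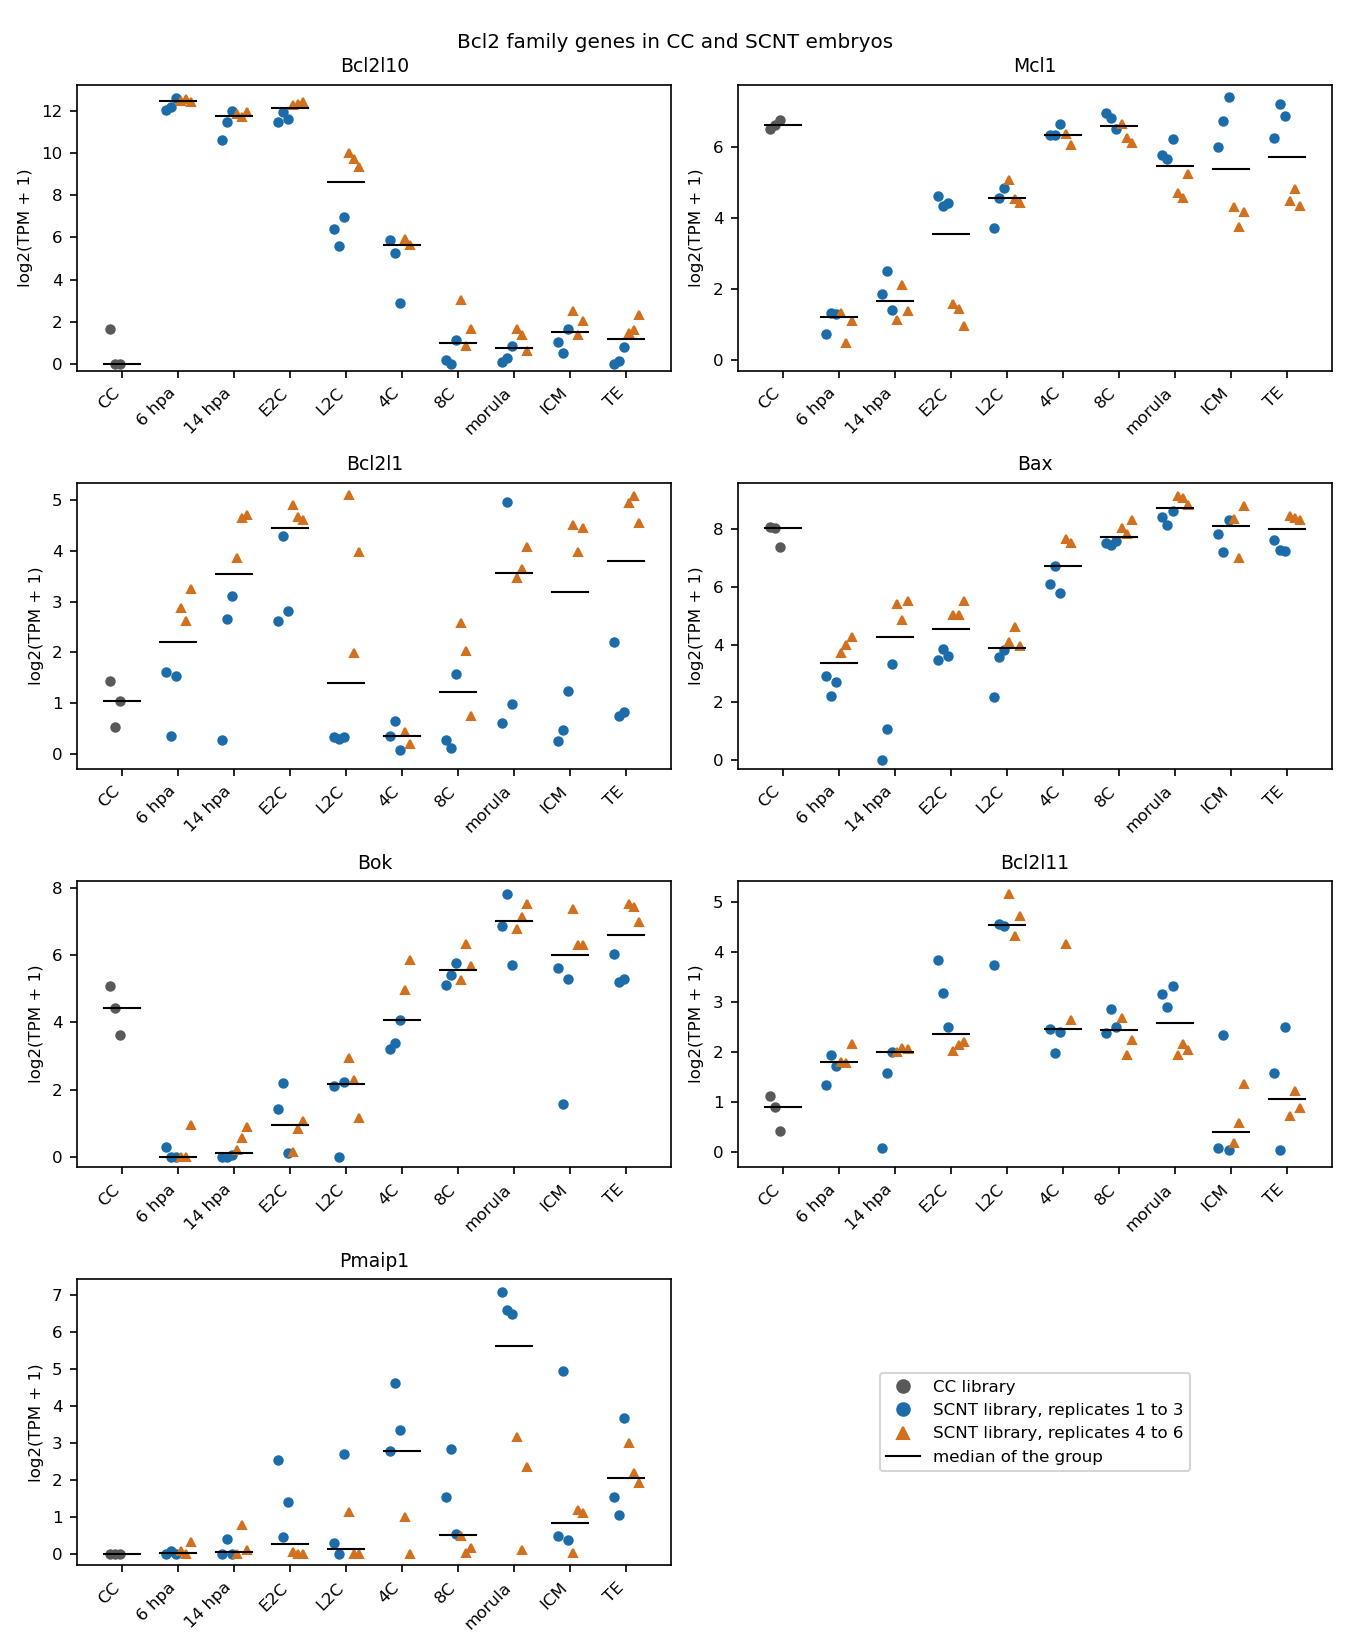
Level of the 7 tested members as log2(TPM + 1) in CC and the 9 SCNT groups, with a point per library (circles for replicates 1 to 3, triangles for replicates 4 to 6, grey for CC) and a line at each group's median. Bcl2l10 drops from a median of 4419 TPM at E2C to 49.6 TPM at 4C, where Bax, Bok and Mcl1 have left their L2C ranges.

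Among the BH3-only members, Bcl2l11 peaked at L2C, and Pmaip1 peaked at morula in replicates 1 to 3 but not in replicates 4 to 6. Bcl2l11 (chr2:128126038-128162547), the BIM gene, ranged from 3.03 to 13.2 TPM at E2C with a median of 4.11 TPM and from 12.4 to 34.7 TPM at L2C with a median of 22.3 TPM. At 4C the replicates read 4.49, 2.92, 4.28, 16.8 and 5.21 TPM, so that among the 4C libraries replicate 4 alone reached into the L2C range. Among the E2C libraries replicate 1, at 13.2 TPM, did so. The median was 4.43 TPM at 8C, 4.98 TPM at morula, 0.314 TPM in ICM and 1.09 TPM in TE.

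Bcl2l11 rose by 1.86 from E2C to L2C (SE 0.40, limma adjusted p = 0.00016) and then fell by 1.78 from L2C to 4C (SE 0.42, limma adjusted p = 0.00046). The rise was 1.10 (adjusted p = 0.22) in replicates 1 to 3 and 2.62 in replicates 4 to 6, and the fall was -2.0 and -1.33. From morula it fell by 1.82 to ICM (SE 0.40, adjusted p = 0.00042) and by 1.43 to TE (SE 0.40, adjusted p = 0.0056). The second of these was -1.75 (adjusted p = 0.052) in replicates 1 to 3 and -1.10 in replicates 4 to 6. Without ICM replicate 2 the fold to ICM was -2.14 (adjusted p = 4.0e-05).

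Pmaip1, the NOXA gene, whose product is known to bind MCL1, was listed at 0 in all 3 CC libraries and at or under 0.721 TPM at 6 hpa and 14 hpa. At 4C the replicates read 5.86, 23.9, 9.18, 1.00 and 0 TPM, and at 8C the range was 0.0318 to 6.17 TPM with a median of 0.432 TPM. Morula replicates read 134, 95.4, 89.2, 7.96, 0.0911 and 4.15 TPM. Replicates 1 to 3 of morula were above every other SCNT library, and replicates 4 to 6 overlapped 8C.

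Pmaip1 rose by 3.36 from 8C to morula (SE 0.79, limma adjusted p = 0.0022), with 5.07 in replicates 1 to 3 and 1.65 in replicates 4 to 6, and it fell by 2.94 from morula to ICM (SE 0.79, adjusted p = 0.004), with -4.77 and -1.10 (adjusted p = 0.12), a call that was lost in a fit of morula and ICM alone (adjusted p = 0.090). Without ICM replicate 2 it was -3.66 (limma adjusted p = 0.00027). ICM replicates read 0.420, 30.2, 0.308, 0.0316, 1.27 and 1.17 TPM. TE lay between 1.10 and 11.8 TPM with a median of 3.20 TPM, and the fold from morula to TE was -2.06 (SE 0.79, limma adjusted p = 0.049). That last call was kept in 15 of 53 fits with a library left out. It was lost without any of morula replicates 1 to 3 (-1.51, -1.61 and -1.63) or of TE replicates 1, 2, 5 and 6 (-1.93, -1.83, -2.06 and -2.0), and the remaining lost calls, on libraries of other stages, left the fold at -2.06 with adjusted p from 0.0505 to 0.053. The same 4 settings that ended the Bok call ended this one (adjusted p from 0.087 to 0.31). The fold was -4.62 in replicates 1 to 3 and 0.49 in replicates 4 to 6. From 6 hpa to morula the fold was 4.22 (SE 0.79, limma adjusted p = 5.3e-06).

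Bbc3, the PUMA gene, lay under the filter. Its highest level was 8.14 TPM, in morula replicate 2, and the morula range was 0.729 to 8.14 TPM with a median of 1.54 TPM, against 0 to 1.26 TPM at 8C and 0 to 0.309 TPM in ICM. It overlapped 4C, at 0.139 to 3.48 TPM, and TE, at 0 to 2.63 TPM. With no filter on low values the limma fold of Bbc3 was 1.24 from 8C to morula (adjusted p = 0.0073) and -1.52 from morula to ICM (adjusted p = 0.0003), while that from morula to TE, -0.89 (adjusted p = 0.049), was under the 2-fold limit. The summed BH3-only level had a median of 6.03 TPM at 8C and 1.12 TPM in ICM, and at morula it was 101 to 144 TPM in replicates 1 to 3 and 5.23 to 12 TPM in replicates 4 to 6.

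**Figure D4:**
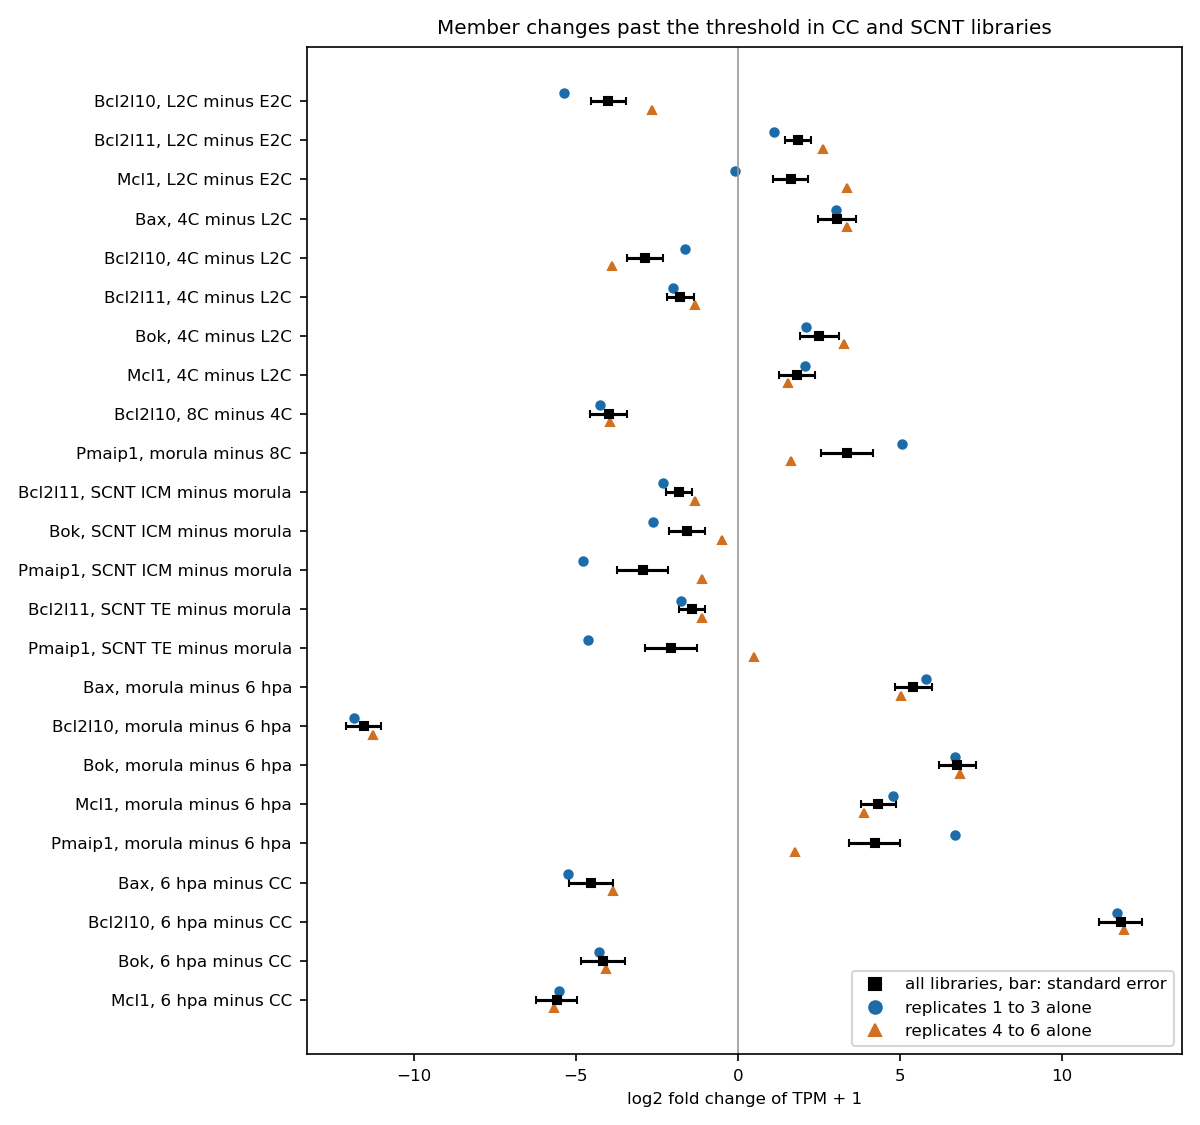
Log2 fold change of the 24 called member contrasts of the CC and SCNT fits, with its standard error, from all libraries and from replicates 1 to 3 and 4 to 6 alone. The points of Mcl1 from E2C to L2C lie at -0.08 and 3.35 in the replicate sets, and those of Pmaip1 from morula to TE at -4.62 and 0.49, on either side of 0.

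Counted by step, 0 of the 7 tested members were called from 6 hpa to 14 hpa, where 11.1% of all genes were, and 0 from 14 hpa to E2C, where 5.83% were. At unadjusted p under 0.05, limma gave 2737 and 2121 of the 11867 genes at these steps. From E2C to L2C 3 of 7 were called (34.9% of all genes), and from L2C to 4C 5 of 7 (38.4%). From 4C to 8C it was 1 of 7 (19.8%), from 8C to morula 1 of 7 (12.2%), from morula to ICM 3 of 7 (24.0%) and from morula to TE 2 of 7 (21.8%). Across the whole interval from 6 hpa to morula 5 of 7 were called, against 71.0% of all genes, a share near that background. The step from L2C to 4C was the step with most calls, 3 higher and 2 lower. The median fold of the tested members there was 1.67 against -0.33 over all genes. That median is the fold of Pmaip1, which was not called (limma adjusted p = 0.10). It lies between members that rose and members that fell, so it describes no common rise. No member was called between SCNT ICM and TE, where 5.34% of genes were, and the fold of Bok there was -1.0 (SE 0.56, limma adjusted p = 0.36).

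Replicates 1 to 3 and 4 to 6 did not overlap for 2 of the 7 tested members at 6 hpa (28.5% of all genes), 4 at 14 hpa (52.5%), 6 at E2C (41.0%), 3 at L2C (27.8%), 4 at 4C (39.0%), 2 at 8C (26.3%), 4 at morula (24.8%), 3 in ICM (28.1%) and 5 in TE (33.0%). Bax was separated in 8 of 9 stages, higher in replicates 4 to 6 each time, and Bcl2l1, by its annotated row, in 6. At the assembled locus the Bcl2l1 sets overlapped at 6 hpa and in ICM. The other members were separated in 3 or 4 stages. At 14 hpa, for example, Bax read 0, 1.10 and 8.97 TPM in replicates 1 to 3 and 41.6, 27.6 and 44.2 TPM in replicates 4 to 6. The sum of annotated genes, as a percent of the assembled loci, moved with the sets, for example from 30.4% to 51.8% in L2C replicates 1 to 3 against 57.8% to 61.8% in replicates 4 to 6, and its part in these differences was not tested.

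In the donor CC, Mcl1 and Bax led their arms, as they did at 8C, and Bcl2l10 was near 0. In these libraries Mcl1 read 90.8, 97.6 and 108 TPM, Bax 268, 264 and 164 TPM, and Bok 32.8, 20.6 and 11.2 TPM, levels within or near the ranges at 4C and 8C. Bcl2l10 read 2.22, 0 and 0 TPM. Mcl1 was a median of 99.0% of the pro-survival sum and Bax 92.6% of the effector sum. Every 6 hpa library was below every CC library for Mcl1, Bax and Bok and above for Bcl2l10.

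From CC to 6 hpa, 4 of 7 tested members were called, where 61.4% of all genes were: 1 higher (25.8%) and 3 lower (35.6%). The limma folds were 11.81 for Bcl2l10 (SE 0.66, adjusted p = 2.7e-22), -5.60 for Mcl1 (SE 0.65, adjusted p = 7.1e-11), -4.54 for Bax (SE 0.68, adjusted p = 6.5e-08) and -4.17 for Bok (SE 0.68, adjusted p = 4.9e-07). All 4 kept their sign and call with replicates 1 to 3 or 4 to 6 of 6 hpa alone, where Bax, for example, was -5.23 and -3.85. The oocyte and cumulus marker sums given above moved with these folds. Between CC and SCNT ICM 0 of 7 were called over all libraries, where 37.9% of genes were, but several members split by replicate set.

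Bcl2l1 was 1.49 higher in SCNT ICM than in CC (SE 1.04, limma adjusted p = 0.27) over all libraries, -0.34 in replicates 1 to 3 and 3.33 (adjusted p = 4.6e-06) in replicates 4 to 6. It was called after quantile normalization (2.07, adjusted p = 0.049) and by the assembled locus (2.24, adjusted p = 0.041). For Mcl1 the difference was -1.23 (SE 0.65, limma adjusted p = 0.13), with 0.09 in replicates 1 to 3 and -2.56 (adjusted p = 3.6e-08) in replicates 4 to 6, and it was called without ICM replicate 3 (-1.64, adjusted p = 0.034). Bok was at 1.03 (SE 0.68, limma adjusted p = 0.24), with -0.21 and 2.28 (adjusted p = 9.6e-05) in the same sets, and it was called without ICM replicate 2 (1.80, adjusted p = 0.0085). The Bcl2l10 fold was 0.97 (SE 0.66, limma adjusted p = 0.26), with 0.52 and 1.42 (adjusted p = 0.0067), and it was called with a pseudocount of 0.1 (2.69, adjusted p = 0.030) and after quantile normalization (1.54, adjusted p = 0.041). With replicates 4 to 6 of ICM alone these 4 members were thus called, and with replicates 1 to 3 alone none was. The share of all genes called in those smaller fits is not given here, so this split cannot be read as particular to the members.

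As a description over the means of the 10 CC and SCNT groups, which share their libraries, the genes most like each member were ranked by Pearson's r on log2(TPM + 1) among 12084 genes. Bcl2l10 was closest to Rfpl4 (0.999), Obox1 and Tcstv1. Bax was closest to Ndufa3 (0.993), Mrpl38 and Mrpl11, the last a pair of mitochondrial ribosome genes, and Bok to Ccdc51 (0.994), Atg4d and Pisd. Mcl1 was closest to H2afz (0.990), a histone variant gene, Bcl2l11 to Zfp558 (0.989), Pmaip1 to Krtdap (0.947) and Bcl2l1 to Dok4 (0.926). Between members, r was 0.969 for Bax and Bok and -0.956 for Bcl2l10 and Bax.

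Of 43 other apoptosis genes listed, some of them of the death receptor arm, 37 were tested in the SCNT libraries. From E2C to L2C 7 rose and 6 fell, 35.1% of those tested with 34.9% of all genes. From L2C to 4C 3 rose and 6 fell (24.3%, with 38.4% of all genes), and from 6 hpa to morula 15 rose and 9 fell (64.9%, with 71.0%). Among the BH3-only genes of the list the direction was mixed. Bad, a BH3-only gene, rose by 3.04 from L2C to 4C, from 0.0794 to 3.19 TPM up to 6.59 to 33.3 TPM, and Bid, another, rose by 2.64 from E2C to L2C. Bik, also a BH3-only gene, fell by 3.27 from E2C to L2C. Birc3, an inhibitor of apoptosis, fell by 2.38 at that step and by 2.71 at the next, from 281 to 369 TPM at 6 hpa to 0.732 to 4.02 TPM at morula. Casp6, an executioner caspase, rose by 6.78 from 6 hpa to morula, and Bcl2l14, a BCL2 relative, by 6.21. All of these folds passed in limma.

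In the later steps Foxo3, a transcription factor known to act on Bcl2l11 and Bbc3, rose by 4.06 from 4C to 8C, fell by 2.92 from morula to ICM and by 2.67 from morula to TE. Trp53, which is known to act on Bbc3 and Pmaip1, was the single listed gene called from 8C to morula (2.70% of those tested, with 12.2% of all genes), at 1.25, and was 1.45 higher in SCNT ICM than in TE.

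In fertilized blastocysts the morpholinos were first checked on their own targets. Morpholinos act on translation or splicing and need not lower RNA. Max read 38.0 and 8.42 TPM in control ICM and 6.82 and 0.443 TPM in Max MO ICM, and 34.5 and 28.5 TPM in control TE and 16.3 and 8.68 TPM in Max MO TE. The limma fold was -2.51 in ICM (adjusted p = 0.040) and -1.32 in TE (adjusted p = 0.39). Mcrs1 read 253 and 310 TPM in control ICM and 86.8 and 73.4 TPM in Mcrs1 MO ICM, and 219 and 294 TPM in control TE and 41.1 and 45.5 TPM in Mcrs1 MO TE, with limma folds of -1.80 (adjusted p = 0.0033) and -2.53 (adjusted p = 0.00087). The control ICM libraries differed on TE markers, which summed to 622 and 16307 TPM in these 2 libraries, against 2775 to 5918 TPM in Max MO ICM and 8146 to 11674 TPM in Mcrs1 MO ICM.

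Both abundant pro-survival genes, Mcl1 and Bcl2l1, were lower in Max MO ICM than in control ICM. Mcl1 read 65.0 and 50.5 TPM in control ICM, 13.2 and 8.98 TPM in Max MO ICM and 25.4 and 35.3 TPM in Mcrs1 MO ICM. Both Max MO libraries were below all 4 others. The fold of Max MO was -2.29 (SE 0.33, limma adjusted p = 0.0014) and that of Mcrs1 MO was -0.91 (SE 0.33, limma adjusted p = 0.093). In TE, Mcl1 read 44.2 and 43.8 TPM in controls, 30.9 and 35.0 TPM with Max MO and 18.5 and 26.0 TPM with Mcrs1 MO, with folds of -0.41 (SE 0.33, adjusted p = 0.53) and -0.97 (SE 0.33, adjusted p = 0.10).

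Bcl2l1 read 115 and 51.1 TPM in control ICM, 8.81 and 1.53 TPM in Max MO ICM and 29.8 and 46.5 TPM in Mcrs1 MO ICM. The Max MO fold was -3.97 (SE 1.27, limma adjusted p = 0.040). The call was lost in 7 of the 12 fits with a library left out: without control ICM replicate 1 (-3.39, adjusted p = 0.105), Max MO ICM replicate 1 (-4.95, adjusted p = 0.064) or replicate 2 (-2.99, adjusted p = 0.22), and, with the fold unchanged at -3.97, without either Mcrs1 MO ICM or either Max MO TE library (adjusted p from 0.057 to 0.059). It was also lost with a pseudocount of 0.1, with no filter and after quantile normalization (adjusted p from 0.055 to 0.14). By the largest assembled locus, a reading added after the data were seen, Bcl2l1 was 85.5 to 128 TPM in control ICM and 8.81 to 27.5 TPM in Max MO ICM. The Max MO fold in ICM was then -2.66 (limma adjusted p = 0.0026). In Mcrs1 MO ICM the locus read 42.5 to 46.1 TPM. In TE the annotated row read 5.78 and 80.3 TPM in controls, 17.6 and 28.6 TPM with Max MO and 29.7 and 1.26 TPM with Mcrs1 MO, whereas the assembled locus ran from 79.4 to 85.5 TPM, 20.5 to 28.3 TPM and 21.2 to 29.5 TPM. The spread of the TE rows was thus not there at the locus. By the locus, Bcl2l1 was lower than in the controls of the same lineage with either morpholino, in ICM and in TE.

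By annotated rows, the summed pro-survival level was 115 to 180 TPM in control ICM and 10.5 to 22 TPM in Max MO ICM. The summed effector level was 399 to 498 TPM and 451 to 483 TPM. The lowest pro-survival sum, in Max MO ICM replicate 2, holds a Bcl2l1 row of 1.53 TPM. The assembled locus read 27.5 TPM in that library, so its sum may be too low. Bcl2l10 was listed at 0 in both Max MO ICM libraries and read 0 and 13.7 TPM in control ICM. Of the 8 tested members, 2 were called lower in Max MO ICM, where 15.1% of all genes were lower and 8.65% higher, 23.7% in either direction. Lineage markers moved with these folds: the primitive endoderm marker sum was 34.9 to 35.8 TPM in control ICM and 76.5 to 264 TPM in Max MO ICM, and the ICM marker sum was 1493 to 2047 TPM and 1186 to 1321 TPM. Their part in the folds was not tested.

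Among the morpholino comparisons Bax was called in 1. It read 154 and 162 TPM in control TE, 297 and 339 TPM in Mcrs1 MO TE and 217 and 207 TPM in Max MO TE. The Mcrs1 MO fold was 1.00 (SE 0.18, limma adjusted p = 0.016), at the 2-fold limit itself. Leaving out any of the 4 libraries compared ended the call, with 0.97 (adjusted p = 0.109) and 1.04 (adjusted p = 0.053) without control TE replicates 1 and 2 and 1.10 (adjusted p = 0.098) and 0.91 (adjusted p = 0.14) without Mcrs1 MO TE replicates 1 and 2, and it fell under the 2-fold limit with TPM rescaled over annotated genes (0.94) or quantile normalized (0.88). The ICM marker sum was 212 to 338 TPM in control TE and 452 to 581 TPM in Mcrs1 MO TE, the TE marker sum was 18684 to 20878 TPM and 15211 to 15664 TPM, and their part in the Bax fold was not tested. In ICM, Bax read 246 and 311 TPM in controls, 392 and 345 TPM with Max MO and 285 and 273 TPM with Mcrs1 MO. The Max MO folds of Bax were 0.41 in ICM (SE 0.18, limma adjusted p = 0.12) and 0.42 in TE (SE 0.18, limma adjusted p = 0.22). In Mcrs1 MO TE 1 of 8 tested members was called, with 5.08% of all genes, and 0 of 8 were called in Mcrs1 MO ICM (10.1%) and in Max MO TE (2.50%).

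Bok read 152 and 187 TPM in control ICM and 90.8 and 106 TPM in Max MO ICM, without overlap, and the fold of -0.78 (SE 0.28, limma adjusted p = 0.057) did not pass. In the other 4 groups it lay between 85.2 and 165 TPM. Pmaip1 read 14.0 and 13.6 TPM in control ICM, 4.22 and 3.0 TPM in Max MO ICM and 7.13 and 41.6 TPM in Mcrs1 MO ICM, and in TE 2.08 and 2.45 TPM in controls, 2.08 and 22 TPM with Max MO and 34.8 and 16.4 TPM with Mcrs1 MO. Its folds were -1.70 (SE 0.93, adjusted p = 0.20) for Max MO in ICM and 2.94 (SE 0.93, adjusted p = 0.083) for Mcrs1 MO in TE, neither called in limma. Without control ICM replicate 2 the second was called, with the same fold and an adjusted p of 0.046. Bcl2l11 lay between 0.677 and 9.99 TPM and Bbc3 between 0 and 3.80 TPM over the 12 libraries.

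**Figure D5:**
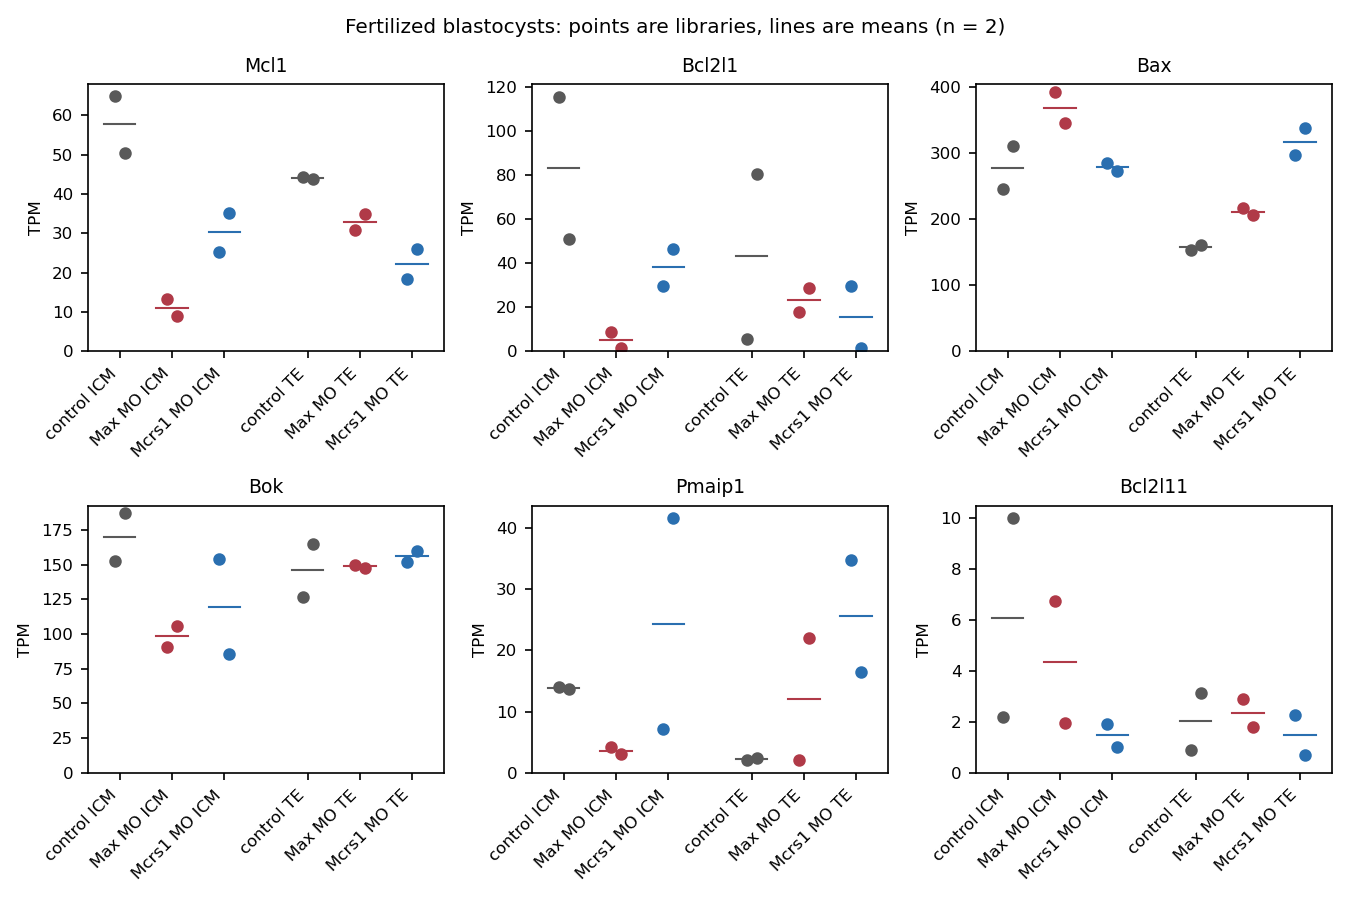
TPM of 6 members in control, Max MO and Mcrs1 MO libraries of ICM and TE, with a point per library and a line at the mean of each pair. Mcl1 lies at 8.98 and 13.2 TPM in Max MO ICM, under every other library, and Bax at 297 and 339 TPM in Mcrs1 MO TE, above both TE controls.

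Whether a morpholino acted differently in ICM and TE was tested directly. No member was called, and limma called 0 of 11219 genes for either morpholino, with 1473 genes for Max MO and 972 for Mcrs1 MO at an unadjusted p under 0.05. The difference of Max MO folds, ICM minus TE, was -1.88 for Mcl1 (SE 0.47, limma adjusted p = 0.19), and it was -3.97 for Bcl2l1 by the annotated row (adjusted p = 0.38) and -0.93 by the assembled locus. Without control ICM replicate 2 the Mcl1 difference was called (-2.07, adjusted p = 0.045). The Mcrs1 MO difference of Bax was -0.99 (SE 0.26, limma adjusted p = 0.41) and was called without control ICM replicate 1 (-1.16, adjusted p = 0.016). In control blastocysts no member was called between ICM and TE, where 2.92% of genes were. Bax was 0.80 higher in control ICM (SE 0.18, adjusted p = 0.044), under the 2-fold limit, and Pmaip1 2.18 higher (SE 0.93, adjusted p = 0.20).

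Of the 43 other apoptosis genes, 34 were tested in these libraries. In Max MO ICM 1 rose and 6 fell, 20.6% of those tested with 23.7% of all genes. Usp9x, which encodes a deubiquitinase known to stabilize MCL1, fell by 2.28, Huwe1, which encodes an MCL1 ubiquitin ligase, fell by 1.86, and Birc6, an inhibitor of apoptosis, fell by 1.98. In Mcrs1 MO ICM 3 rose and 2 fell (14.7%, with 10.1% of all genes), with Usp9x at -1.92 and Bad at 1.44, and in Mcrs1 MO TE Birc6 alone was called, at -1.56 (2.94%, with 5.08%). In Max MO TE none of the 34 passed in limma, where 2.50% of all genes did. In control blastocysts Bid, at 2.43, and Trp53, at 2.21, were higher in ICM than in TE (5.88%, with 2.92%).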

How the data were processed

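Smart-seq2 libraries (68) were used as deposited. Per the labels and the authors' methods, reads were trimmed with cutadapt 1.16, aligned to mm10 with HISAT2 and quantified with StringTie, whose version is not given in the sources used here. The deposited TPM column is scaled so that the loci assembled without a gene name sum to 1000000, with annotated genes listed beside them. The deposited FPKM and coverage columns were used to obtain the aligned gigabases of each library, as coverage divided by FPKM. No read counts were given, so no count test was run.

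TPM of rows with a shared symbol was summed and tested as log2(TPM + 1) with limma 3.58.1 in R 4.3.3 (group means, empirical Bayes with trend) on genes with a mean of at least 1 TPM: 11867 genes in 53 SCNT libraries, 12084 in 56 CC and SCNT libraries and 11219 in 12 morpholino libraries. The study used another, count-based test. p-values were adjusted by Benjamini-Hochberg over all genes tested. The test was checked on simulated data. Assembled loci with at least 50% of their length inside a member's span were compared with its row.

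The members, the gene lists and the split into replicates 1 to 3 and 4 to 6 were chosen with earlier results of these data known. Named genes were all members, the 3 genes most like each tested member, up to 4 called genes of the apoptosis list per comparison, and the morpholino targets. Some called genes of the apoptosis list are not reported here. The 4C library labelled replicate 5 was used under that number. Groups were taken from the labels.

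After centring each group, libraries with the same number correlated above 0.1 for every number only between 6 hpa and 14 hpa (r from 0.142 to 0.390) and between SCNT ICM and TE (0.131 to 0.300). No member was called in either comparison with or without the replicate block. No pair of libraries held identical values. Alternatives were the pseudocount, the filter, rescaling, quantile normalization, the largest row of a gene, the block, smaller fits, and each library left out.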

Additional observations from a re-analysis of the deposited data

Results flagged for a closer look

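In 6 of 63 groups of member values the highest or lowest library stood apart from the others of its group by Dixon's criterion, where chance gives about 1 in 20. Bcl2l10 was 6.52 TPM in 4C replicate 3, against 37.4 to 60.7 TPM in the other 4C libraries. Bcl2l11 was 0.0537 TPM in 14 hpa replicate 1, against 1.99 to 3.25 TPM in the others, and Bax was listed at 0 in the same library. At 6 hpa, replicate 6 had the highest Bok, 0.936 TPM against at most 0.228 TPM, and the highest Pmaip1, 0.256 TPM against at most 0.0719 TPM.

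SCNT ICM replicate 2 was apart for 2 members in opposite directions, with Bok at 1.96 TPM against 38.4 to 164 TPM and Pmaip1 at 30.2 TPM against 0.0316 to 1.27 TPM. This library had 6177 genes at 1 TPM or more, the fewest of the 68 libraries. Without it the folds from morula to ICM were -3.66 for Pmaip1 and -2.14 for Bcl2l11, both called in limma, and -0.80 for Bok, which was not.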

How the results depend on the processing

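Of 27 called member folds, 18 kept direction and call in all alternatives and in all fits with a library left out, as did 13 of the 27 uncalled folds given here. The calls among SCNT stages numbered 20, against 18 to 25 under the alternatives and 18 to 22 with a library left out. Calls of CC against SCNT numbered 4, with 7 after quantile normalization and 10 with replicates 4 to 6 alone. The shares of all genes called under these settings are not given here. The knockdown calls numbered 3, with 1 after quantile normalization. With a library left out, the calls of the response in ICM against TE ranged from 0 to 2 and those of control ICM against TE from 0 to 1. Of these 54 folds, 6 turned sign: from CC to SCNT ICM Mcl1 (0.093), Bcl2l1 (-0.34) and Bok (-0.21), and Mcl1 from E2C to L2C (-0.085), with replicates 1 to 3 alone, and Mcl1 from 14 hpa to E2C (-0.20) and Pmaip1 from morula to TE (0.49) with replicates 4 to 6 alone. The causes were not tested.

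With the replicate block, calls among SCNT stages numbered 22, adding Bcl2l1 from E2C to L2C and from 8C to morula, stages whose numbers did not pair the libraries. The block changed no other call. A term for replicates 1 to 3 against 4 to 6 added those 2 and Mcl1 from 8C to morula, and fits of the compared groups alone ended 3 calls and added 5: Bok and Bax from 4C to 8C, Bok and Mcl1 from 8C to morula, and Pmaip1 in Mcrs1 MO TE. Rescaling TPM over annotated genes moved the median fold of all genes from 0.26 to 0.54 between E2C and L2C and from -0.33 to -0.57 between L2C and 4C, and turned no called member fold. A fit of each lineage alone gives no value for the response in ICM against TE. Without counts, the number of reads behind a TPM value is unknown, and levels under 1 TPM carry no direction.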
